A study of Mus musculus with 9 samples.

Results

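Krüppel-like factors (KLFs) are transcription factors with a row of zinc fingers at the end of the protein that reads GC-rich and CACCC-type DNA. The 10 genes described here were Klf2, Klf3, Klf4, Klf6, Klf7, Klf9, Klf10, Klf11, Klf13 and Klf16. They were taken by gene symbol from count tables of 56262 mouse genes, and all 10 were found and passed the filter on low counts, among 16595 genes tested. RNA was sequenced from C57BL/6 wild-type mouse cells sorted as long-term hematopoietic stem cells (LT-HSCs), the bone marrow cells that renew blood for life. Mice of the 5-FU+FMT group received 5-fluorouracil (5-FU, a chemotherapy drug toxic to cycling cells) at 250 mg/kg and then FMT, an agent that the labels do not spell out, into a vein at 5 mg/kg on days 1, 4 and 7. Mice of the 5-FU+Saline group received the same 5-FU dose followed by a saline that the labels also call PBS, on a schedule that is not stated. LT-HSCs of both 5-FU groups were collected on day 8, and Control mice were untreated. Each group had 3 libraries. The labels do not say that a library is a separate mouse, so p-values measure the spread between these libraries, which may be technical. Beyond counting noise, the fit put the common spread between libraries of a group at 3.74% of a gene's level. Small adjusted p-values below thus do not show replication over mice. Neither age nor sex is given.

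As background, family members sort by what their N-terminal parts recruit. Klf2, Klf4, Klf6 and Klf7 are mainly activators, and Klf2, Klf4 and Klf6 can be switched on quickly by outside stimuli. KLF2 and KLF4 hold lymphocytes and vessel-lining cells at rest, downstream of the kinase MAPK7 and MEF2 factors. KLF3 is a repressor that works with CTBP corepressors. KLF9, KLF10, KLF11, KLF13 and KLF16 share a motif that recruits the SIN3A corepressor, and Klf10 and Klf11 were first described as early genes of TGF-beta signalling. Klf9 is a gene that glucocorticoids induce.

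The libraries held between 11098031 and 19270976 counts. Single counts of a member in a library lay between 241, for Klf7, and 32087, for Klf6. Values are given in CPM, counts brought to a common library size with TMM, a scaling that balances most genes between libraries. All 10 LT-HSC marker genes were above 1 CPM in each group, and their summed level was 1083 to 1117 CPM in 5-FU+FMT, 966 to 991 CPM in 5-FU+Saline and 1264 to 1288 CPM in Control. Marker by marker, 5 of these 10 were higher and 3 lower in 5-FU+Saline than in Control, with a median log2 fold change of 0.40, and Slamf1 and Vwf were among the higher. Of all genes tested, 32.8% were called higher and 32.7% lower in that comparison. Of the 4 genes of the sort gate, Kit was lower in 5-FU+Saline than in Control and Slamf1, Ly6a and Cd48 were higher. Kit averaged 537 ± 6.84 CPM in 5-FU+FMT, 411 ± 7.08 CPM in 5-FU+Saline and 754 ± 6.41 CPM in Control (SD, n = 3 each). Slamf1, which encodes CD150, averaged 24.4 ± 1.76 CPM in 5-FU+FMT, 34.6 ± 2.06 CPM in 5-FU+Saline and 8.35 ± 1.16 CPM in Control, and was 4.16-fold higher in 5-FU+Saline than in Control (log2 fold change 2.06, SE 0.103, adjusted p = 7.33e-30, edgeR). Ly6a, which encodes Sca1, averaged 108 ± 6.71 CPM in 5-FU+FMT, 118 ± 2.41 CPM in 5-FU+Saline and 97.2 ± 7.27 CPM in Control. Cd48, whose protein the gate excludes if the label's last marker, written C48-, means CD48, averaged 46.7 ± 1.53 CPM in 5-FU+FMT, 53.7 ± 0.557 CPM in 5-FU+Saline and 30.7 ± 1.27 CPM in Control. The groups also differed in sex-linked RNA. Xist, transcribed from the inactive X chromosome of female cells, had 693, 695 and 659.5 CPM in 5-FU+FMT, 1183, 1223 and 1198 CPM in 5-FU+Saline and 1.34, 0.734 and 0.533 CPM in Control. The Y-linked Ddx3y had 99.7, 98.0 and 103 CPM in 5-FU+FMT, 37.8, 37.1 and 41.9 CPM in 5-FU+Saline and 172, 164 and 169 CPM in Control. Every library of both 5-FU groups thus held RNA of both kinds, at similar levels within a group, and Control held Ddx3y with almost no Xist. Whether a library pools cells of several mice is not stated and was not tested. The sex makeup of the libraries and the treatment cannot be told apart in any comparison below.

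Klf2, Klf4 and Klf6 were the members that differed most between the groups. They lie far apart in the genome (mm10, the coordinates of the count tables), Klf2 on chr8:72319033-72321656 on the plus strand, Klf4 on chr4:55527143-55532466 on the minus strand and Klf6 on chr13:5861482-5870394 on the plus strand. The 250 bases before each RefSeq start site are shown because these are the 3 genes on which the results below turn. They are from the RefSeq table of GRCm38.p6, the assembly named mm10 by UCSC, and are written 5′ to 3′ on the strand of the gene. Capitals mark GC boxes (GGGCGG), which Sp and KLF proteins can bind, the MEF2 site of Klf2 and the E-boxes (CACGTG) of Klf4 and Klf6, on either strand.
Klf2, chr8:72318812-72319061, plus strand: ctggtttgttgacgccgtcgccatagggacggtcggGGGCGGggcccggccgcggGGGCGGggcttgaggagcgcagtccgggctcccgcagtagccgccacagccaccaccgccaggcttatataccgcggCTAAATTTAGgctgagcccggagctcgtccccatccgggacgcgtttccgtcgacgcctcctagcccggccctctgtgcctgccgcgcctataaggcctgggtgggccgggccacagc
Klf4, chr4:55532476-55532725, minus strand: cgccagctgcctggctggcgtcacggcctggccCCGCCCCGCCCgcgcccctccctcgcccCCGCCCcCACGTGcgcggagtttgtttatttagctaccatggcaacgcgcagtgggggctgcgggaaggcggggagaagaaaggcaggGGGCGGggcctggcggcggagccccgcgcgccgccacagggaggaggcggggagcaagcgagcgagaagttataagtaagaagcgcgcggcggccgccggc
Klf6, chr13:5861239-5861488, plus strand: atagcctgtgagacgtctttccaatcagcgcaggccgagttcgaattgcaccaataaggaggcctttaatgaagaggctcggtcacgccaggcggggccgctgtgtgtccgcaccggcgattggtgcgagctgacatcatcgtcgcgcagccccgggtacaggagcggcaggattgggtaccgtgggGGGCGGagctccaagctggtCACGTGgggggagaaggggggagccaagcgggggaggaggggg

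These 3 windows are GC-rich, with 71.2% G or C for Klf2, 74% for Klf4 and 64.8% for Klf6, against a median of 52.4% over the 32851 promoter windows of the table. A window was found there for 8 of the 10 members, all except Klf10 and Klf16. A GC box was found in 7 of the 8, all except Klf9, and in 32.7% of all windows. The related CACCC box (CACCC), not capitalised above, was found in 5 of the 8 (Klf2, Klf3, Klf7, Klf9 and Klf13) and in 52.0% of all windows. An E-box was found in Klf4, Klf6 and Klf11 and in 6.02% of all windows, and a MEF2 site only in Klf2 among the 8 and in 2.92% of all. The run TGANTCA, a loose form of the AP-1 site that allows any base at its centre, was in 6.75% of all windows. Among the 8 it was only in Klf9, as TGAATCA. The cyclic AMP response element (TGACGTCA), in 1.55% of all windows, and the CArG box of serum response factor, in 1.47%, were in none of the 8. All motifs were searched on both strands, and neighbouring GC boxes can share bases, as the first pair in Klf4 does. A match is a run of letters, not a measured binding site.

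Klf6, an activator also known as a growth suppressor in tumours, had the largest fitted decrease of the family after 5-FU and saline. It had 702, 722 and 766 CPM in the 5-FU+FMT libraries, 161, 162 and 161 CPM in the 5-FU+Saline libraries and 1727, 1698 and 1711 CPM in the Control libraries. No library of one group came near those of another, and the 5-FU+FMT libraries lay between the other groups. Klf6 was 10.6-fold lower in 5-FU+Saline than in Control (log2 fold change -3.41, SE 0.0283, adjusted p = 6.25e-82, edgeR quasi-likelihood F test with Benjamini-Hochberg adjustment over all genes tested, used for every adjusted p below). It was 4.52-fold higher in 5-FU+FMT than in 5-FU+Saline (2.18, SE 0.0281, adjusted p = 4.09e-68 by edgeR). It was 2.35-fold lower in 5-FU+FMT than in Control (-1.23, SE 0.0251, adjusted p = 2.67e-54 by edgeR). In RNA from sorted cells, fewer cells of a type that holds the transcript and less of it per cell cannot be told apart.

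Klf2, which keeps naive T cells resting and is named for its high level in lung vessels, had 327, 353 and 383 CPM in 5-FU+FMT, 86.1, 91.5 and 89.0 CPM in 5-FU+Saline and 886, 911 and 903 CPM in Control. Again the 3 groups did not overlap. Klf2 was 10.1-fold lower in 5-FU+Saline than in Control (log2 fold change -3.34, SE 0.0353, adjusted p = 9.43e-75 by edgeR) and 3.98-fold higher in 5-FU+FMT than in 5-FU+Saline (1.99, SE 0.036, adjusted p = 4.64e-58). It was 2.54-fold lower in 5-FU+FMT than in Control (-1.35, SE 0.0308, adjusted p = 8.57e-51 by edgeR). Klf4, one of the factors that can reprogram cells to pluripotency and a driver of monocyte differentiation, had 103, 101 and 115 CPM in 5-FU+FMT, 30.3, 32.8 and 33.1 CPM in 5-FU+Saline and 274, 272 and 273 CPM in Control. Its groups did not overlap either, and the Control libraries varied least (273 ± 0.765 CPM, SD, n = 3). Klf4 was 8.50-fold lower in 5-FU+Saline than in Control (-3.09, SE 0.0466, adjusted p = 5.87e-64 by edgeR), 3.30-fold higher in 5-FU+FMT than in 5-FU+Saline (1.72, SE 0.0504, adjusted p = 7.37e-44) and 2.57-fold lower in 5-FU+FMT than in Control (-1.36, SE 0.0402, adjusted p = 1.33e-43).

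**Figure D1:**
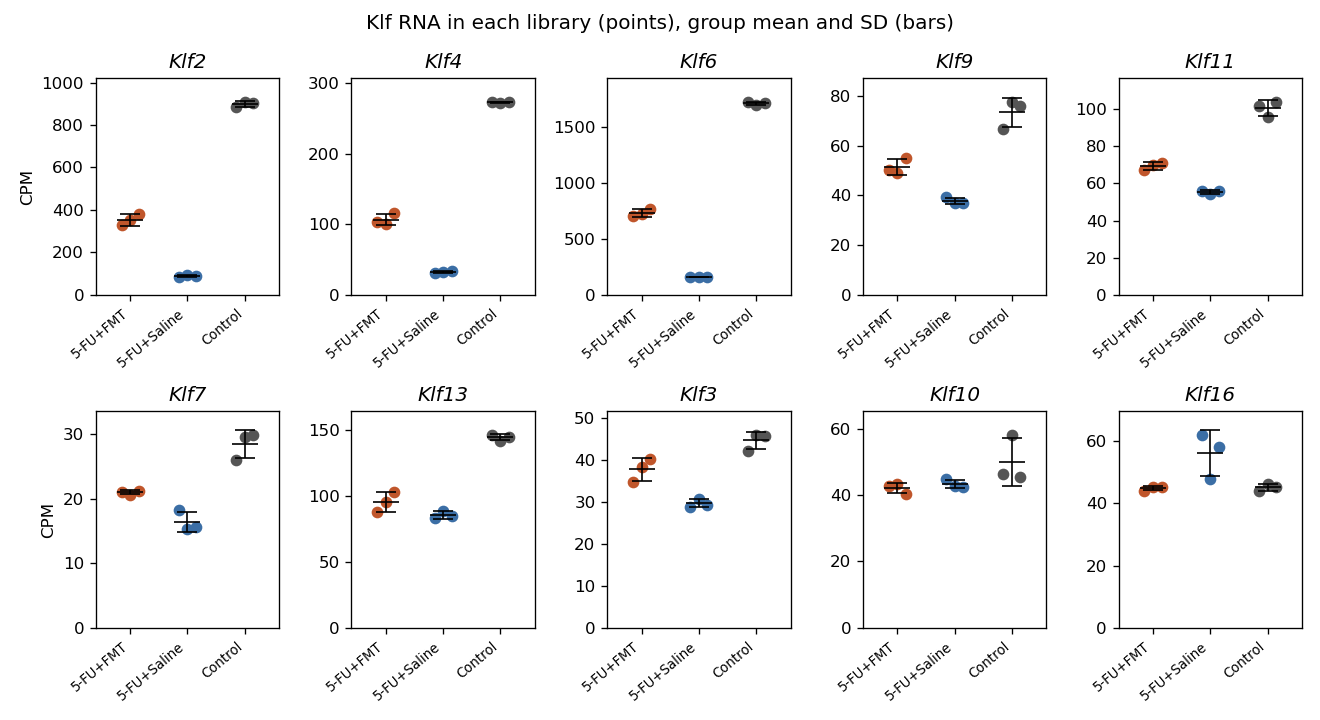
Level of each of the 10 members in CPM (y axis, linear, from 0, its own scale in each panel) in the 5-FU+FMT, 5-FU+Saline and Control libraries. Points are libraries and bars give the mean and SD of 3; Klf2, Klf4 and Klf6 fall steeply in 5-FU+Saline, the other falls are shallower, and Klf16 alone has its highest mean in 5-FU+Saline.

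A second set, Klf9, Klf11, Klf7 and Klf3, moved the same way by smaller folds. Klf9, on chr19:23141226-23168134, had 50.2, 48.9 and 54.9 CPM in 5-FU+FMT, 39.3, 37.1 and 36.7 CPM in 5-FU+Saline and 66.8, 77.7 and 75.8 CPM in Control. The lowest Control library stood above every 5-FU+FMT library, and these above every 5-FU+Saline library. Klf9 was 1.95-fold lower in 5-FU+Saline than in Control (log2 fold change -0.96, SE 0.0626, adjusted p = 2.17e-23 by edgeR) and 1.36-fold higher in 5-FU+FMT than in 5-FU+Saline (0.45, SE 0.0648, adjusted p = 2.35e-08). It was 1.43-fold lower in 5-FU+FMT than in Control (-0.52, SE 0.0613, adjusted p = 2.79e-11). Klf11, on chr12:24651274-24662789, a repressor also known from insulin regulation, had 67.3, 69.9 and 71.3 CPM in 5-FU+FMT, 56.2, 54.4 and 55.9 CPM in 5-FU+Saline and 102, 96.0 and 104 CPM in Control. Its groups did not overlap. Klf11 was 1.82-fold lower in 5-FU+Saline than in Control (-0.86, SE 0.0511, adjusted p = 1.36e-25 by edgeR), 1.25-fold higher in 5-FU+FMT than in 5-FU+Saline (0.32, SE 0.0529, adjusted p = 5.09e-07) and 1.45-fold lower in 5-FU+FMT than in Control (-0.54, SE 0.0506, adjusted p = 3.35e-15).

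Klf7, on chr1:64029447-64122282, an activator best known from neurons, had 21.1, 20.6 and 21.2 CPM in 5-FU+FMT, 18.2, 15.3 and 15.7 CPM in 5-FU+Saline and 26.0, 29.6 and 30.0 CPM in Control. Its 3 groups were apart although it had the fewest counts of the family. Klf7 was 1.74-fold lower in 5-FU+Saline than in Control (log2 fold change -0.80, SE 0.0928, adjusted p = 4.74e-12 by edgeR), 1.28-fold higher in 5-FU+FMT than in 5-FU+Saline (0.36, SE 0.0958, adjusted p = 0.00178) and 1.36-fold lower in 5-FU+FMT than in Control (-0.44, SE 0.0915, adjusted p = 3.11e-05). Klf3, on chr5:64803388-64832901, had 34.7, 38.3 and 40.2 CPM in 5-FU+FMT, 28.9, 30.7 and 29.3 CPM in 5-FU+Saline and 42.2, 46.0 and 45.7 CPM in Control. The groups did not overlap, but the highest 5-FU+FMT library and the lowest Control library were close. Klf3 was 1.51-fold lower in 5-FU+Saline than in Control (-0.59, SE 0.0724, adjusted p = 3.53e-11 by edgeR) and 1.27-fold higher in 5-FU+FMT than in 5-FU+Saline (0.35, SE 0.0736, adjusted p = 8.06e-05). Its 1.19-fold lower level in 5-FU+FMT than in Control (-0.25, SE 0.0716, adjusted p = 0.00314) was no longer called without 5-FU+FMT replicate 1 (-0.18, adjusted p = 0.0567), and over all alternatives its adjusted p was 0.00019 to 0.0567. The counting did not use strand, and 404 exon bases of Klf3, 3.6% of its exons, lie opposite Gm20033, which had 271 counts over the 9 libraries against 5054 for Klf3.

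Klf13, Klf10 and Klf16 each departed from that order. Klf13, on chr7:63886351-63938915, a factor that raises the chemokine CCL5 in T cells, had 87.7, 95.2 and 103 CPM in 5-FU+FMT, 83.0, 88.4 and 84.7 CPM in 5-FU+Saline and 146, 142 and 145 CPM in Control. Both 5-FU groups lay below Control and overlapped each other. Klf13 was 1.69-fold lower in 5-FU+Saline than in Control (log2 fold change -0.76, SE 0.045, adjusted p = 1.46e-25 by edgeR) and 1.52-fold lower in 5-FU+FMT than in Control (-0.60, SE 0.0451, adjusted p = 1.14e-19). Its 1.11-fold higher level in 5-FU+FMT than in 5-FU+Saline (0.16, SE 0.0467, adjusted p = 0.00528 by edgeR) was lost without 5-FU+FMT replicate 3 (0.10, adjusted p = 0.14), and over all alternatives the adjusted p was 0.000357 to 0.14.

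Klf10, on chr15:38291463-38300706, an early TGF-beta response gene, had 42.8, 43.3 and 40.3 CPM in 5-FU+FMT, 44.8, 42.8 and 42.4 CPM in 5-FU+Saline and 46.5, 58.2 and 45.3 CPM in Control. Control replicate 2 stood well above the other Control libraries, and the 5-FU groups overlapped. Klf10 was called 1.14-fold lower in 5-FU+Saline than in Control (log2 fold change -0.19, SE 0.0694, adjusted p = 0.0115 by edgeR) and 1.17-fold lower in 5-FU+FMT than in Control (-0.23, SE 0.0706, adjusted p = 0.00448). Without Control replicate 2 neither was called, with -0.08 (adjusted p = 0.321) for 5-FU+Saline and -0.12 (adjusted p = 0.178) for 5-FU+FMT. The 5-FU+Saline call was also lost with no filter on low counts (-0.15, adjusted p = 0.0665) and without 5-FU+Saline replicate 3 (-0.17, adjusted p = 0.0503), and its adjusted p of 0.0115 does not pass a threshold of 0.01. Over all alternatives the adjusted p was 0.000461 to 0.321 for 5-FU+Saline against Control and 0.00027 to 0.178 for 5-FU+FMT against Control. Between 5-FU+FMT and 5-FU+Saline the Klf10 difference was not called (-0.04, SE 0.0703, adjusted p = 0.708 by edgeR).

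Klf16, on chr10:80567124-80577321, a repressor described in the brain's dopamine system, had 44.1, 45.4 and 45.1 CPM in 5-FU+FMT, 62.1, 47.9 and 58.2 CPM in 5-FU+Saline and 44.0, 46.2 and 45.3 CPM in Control. The 5-FU+Saline libraries were all above the rest, with replicate 2 close to them, and 5-FU+FMT overlapped Control. Klf16 was 1.24-fold higher in 5-FU+Saline than in Control (log2 fold change 0.31, SE 0.0669, adjusted p = 3.23e-05 by edgeR) and 1.25-fold lower in 5-FU+FMT than in 5-FU+Saline (-0.32, SE 0.0666, adjusted p = 4.9e-05). It was not called between 5-FU+FMT and Control (-0.0093, SE 0.0695, adjusted p = 0.927 by edgeR).

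Counted as a family, 9 of the 10 members were lower and 1 higher in 5-FU+Saline than in Control, beside 32.7% of all genes tested called lower and 32.8% called higher. Of the 9, 3 were lower by at least 2-fold (Klf2, Klf4 and Klf6), which 11.2% of all genes were. The members' median log2 fold change was -0.83, against -0.02 for all genes. Between 5-FU+FMT and 5-FU+Saline, 8 members were higher and 1 lower in 5-FU+FMT, with 17.7% of all genes called higher and 19.2% called lower. The same 3 members were higher by at least 2-fold, as 3.53% of all genes were, and the median was 0.35, against 0.01 for all genes. In 5-FU+FMT against Control, 9 members were lower and none higher, with 21.6% of all genes called lower and 25.0% higher, and medians of -0.53 for the members and -0.01 for all genes. With upper-quartile scaling the split over all genes in that last comparison was 3315 higher and 4559 lower, against 4151 higher and 3584 lower with TMM, and the members' counts were 0 and 9 with both. In 7 members (Klf2, Klf3, Klf4, Klf6, Klf7, Klf9 and Klf11) all 5-FU+FMT libraries lay above all 5-FU+Saline and below all Control libraries, an order that 14.9% of all genes showed. The comparisons share libraries, so they are not independent of each other. The members were chosen with earlier results of these data known, so setting their counts beside the shares of all genes is a description, not a test.

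**Figure D2:**
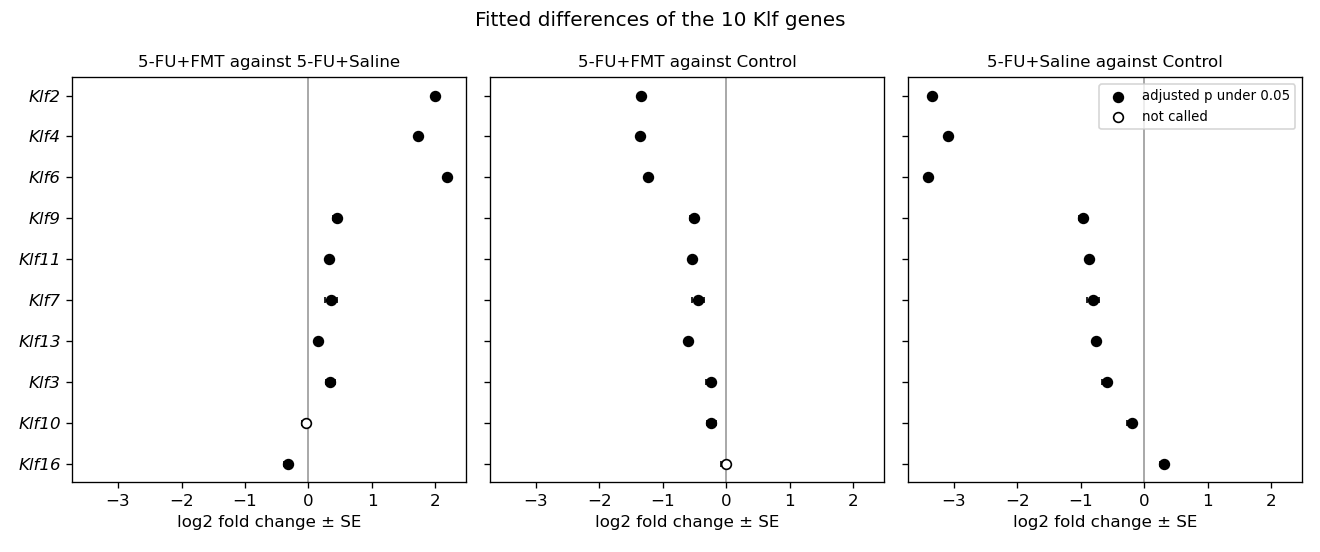
Log2 fold change ± SE (x axis) of each member (rows) in 5-FU+FMT against 5-FU+Saline, 5-FU+FMT against Control and 5-FU+Saline against Control (panels), with filled points for adjusted p under 0.05 and open points for members not called. Klf2, Klf4 and Klf6 stand apart from the other members, at -3.41 to -3.09 in 5-FU+Saline against Control.

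Levels of different genes can be compared per length of exon. Summed over the members, the family had 465 ± 26.8 CPM per kb in 5-FU+FMT, 163 ± 1.19 CPM per kb in 5-FU+Saline and 1061 ± 5.69 CPM per kb in Control (SD, n = 3 each). Klf2, Klf4 and Klf6 made up 84.5% ± 0.444 of that sum in 5-FU+FMT, 58.4% ± 1.61 in 5-FU+Saline and 91.2% ± 0.182 in Control. The other 7 members together had 72.1 ± 2.11 CPM per kb in 5-FU+FMT, 67.9 ± 3.09 CPM per kb in 5-FU+Saline and 93.9 ± 2.43 CPM per kb in Control. Klf2 had the highest level per kb in each group and Klf6 came next, with 192 and 166 CPM per kb in 5-FU+FMT, 48.1 and 36.7 in 5-FU+Saline and 487 and 390 in Control. Klf7 was lowest and Klf3 next to it in each group. In 5-FU+FMT (34.9 CPM per kb) and in Control (89.6 CPM per kb) Klf4 held rank 3, against rank 6 in 5-FU+Saline (10.5 CPM per kb). Klf16 held rank 4 in 5-FU+FMT (16.8 CPM per kb), rank 3 in 5-FU+Saline (21.0 CPM per kb) and rank 6 in Control (16.9 CPM per kb). Most neighbours in these orders did not overlap over the libraries. The exceptions were Klf9 with Klf10 in 5-FU+FMT and in Control, and Klf4 with Klf10 in 5-FU+Saline.

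**Figure D3:**
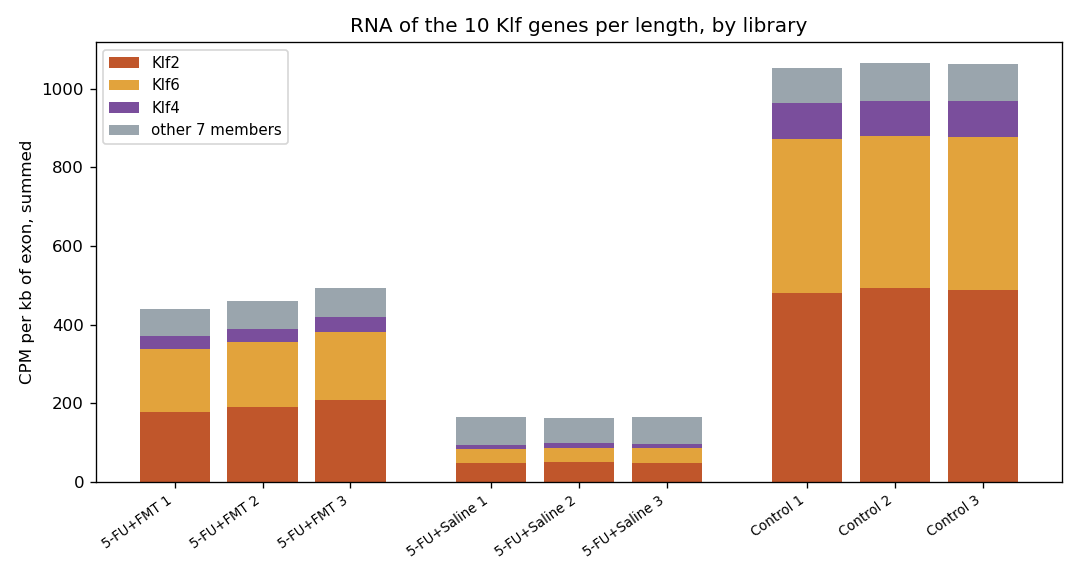
Summed level of the 10 members in CPM per kb of exon (y axis, linear, from 0) in each library of 5-FU+FMT, 5-FU+Saline and Control, with stacked segments for Klf2, Klf6, Klf4 and the other 7 members. The sum is lowest in 5-FU+Saline (163 CPM per kb on average), where the other 7 members hold their largest share.

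How far the 5-FU+FMT level lay from 5-FU+Saline (0%) towards Control (100%) was read on the linear CPM scale. The mean position was 36.7% for Klf6 (34.9% to 39.0% over the 5-FU+FMT libraries), 32.7% for Klf2 (29.4% to 36.3%) and 30.8% for Klf4 (28.5% to 34.5%). Klf7 at 37.7%, Klf9 at 38.2% and Klf11 at 31.0% lay in the same range, Klf13 lower at 16.8% and Klf3 higher at 53.8%, with Klf3 libraries spread over 33.5% to 70.1%. For comparison, the 2933 genes called with at least 2-fold difference in 5-FU+Saline against Control had a median of 41.1% with quartiles of 30.8% and 53.9%, and the 1025 of them with at least 10 CPM in a group had a median of 40.4% with quartiles of 34.1% and 47.4%. Klf2 and Klf4 thus lay below the lower quartile of those well-measured genes and Klf6 just above it. Xist was at 43.2% and Ddx3y at 47.2%, above the means of all members except Klf3 and Klf16. For Klf10 and Klf16 the position is outside the range or at its end, -18.2% and 103%, and the 5-FU+FMT mean did not lie between those of the other groups.

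**Figure D4:**
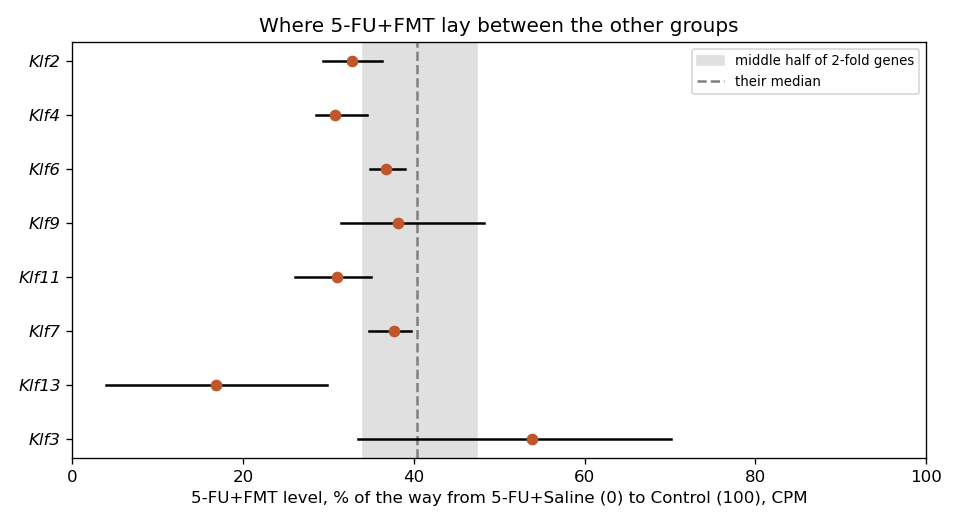
Position of the 5-FU+FMT level from 5-FU+Saline (0%) to Control (100%) on the linear CPM scale (x axis, percent) for 8 members. Points are means, lines run from the lowest to the highest 5-FU+FMT library, and the band and dashed line are the quartiles and median of the 1025 genes with at least 2-fold difference and 10 CPM; Klf2, Klf4, Klf11 and Klf13 have means left of the band and Klf3 right of it.

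Among 9717 protein-coding genes with a standard symbol and at least 10 CPM in 1 group or more, the genes whose pattern over the 9 libraries lay closest to each member were found by the Euclidean distance between log2 CPM centred per gene. The closest to Klf2 were Egr1 (distance 0.129) and Fosb (0.185), and to Klf6 Fosb (0.112) and Jun (0.14), all immediate early transcription factor genes. The closest to Klf4 were Fos (0.281), of the same class, and Cyp26b1 (0.313), a retinoic acid-degrading enzyme. Klf9 had Krba1 (0.152) and Ezh1 (0.18), a Polycomb methyltransferase gene, and Klf11 had Tut7 (0.0881) and Zfp945 (0.121). Klf3 had Ikzf2 (0.142) and Rlf (0.143), Klf7 had Plcl1 (0.157) and Galnt11 (0.165), and Klf13 had Zfand2a (0.126) and Csrnp1 (0.153). Klf10 had Ttc19 (0.199) and Gbp9 (0.205), and Klf16 had Galnt4 (0.206) and Apopt1 (0.216). Within the family the nearest pairs were Klf2 with Klf6 (0.25), Klf7 with Klf9 (0.257) and Klf11 with Klf13 (0.261), while Klf10 and Klf16 were farthest from any other member, at 0.647 and 0.711. All distances rest on the same 9 libraries and their 3 groups.

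Of the 7 remaining Klf genes, 4 were tested. Klf1, the red cell master factor, had 14.4, 15.2 and 14.4 CPM in 5-FU+FMT, 3.83, 2.74 and 3.46 CPM in 5-FU+Saline and 28.0, 30.1 and 27.6 CPM in Control, a non-overlapping order like that of Klf2. It was 8.50-fold lower in 5-FU+Saline than in Control (log2 fold change -3.09, SE 0.127, adjusted p = 6.67e-35 by edgeR) and 4.38-fold higher in 5-FU+FMT than in 5-FU+Saline (2.13, SE 0.137, adjusted p = 7.75e-23). Klf12, a CTBP-binding repressor, was 2.02-fold lower in 5-FU+Saline than in Control (-1.01, SE 0.126, adjusted p = 5.85e-11) and 1.43-fold higher in 5-FU+FMT than in 5-FU+Saline (0.51, SE 0.131, adjusted p = 0.00103). Klf5, at 1.78 ± 0.275 CPM in 5-FU+FMT, 1.65 ± 0.235 CPM in 5-FU+Saline and 3.39 ± 0.955 CPM in Control (SD, n = 3 each), was called lower in 5-FU+Saline than in Control (-1.02, SE 0.302, adjusted p = 0.00238 by edgeR). Klf8, a gene that KLF3 represses in mouse, was not called in any comparison, with 15.4 ± 2.02 CPM in 5-FU+FMT, 15.9 ± 1.35 CPM in 5-FU+Saline and 15.6 ± 2.2 CPM in Control. Klf14, Klf15 and Klf17 did not pass the filter, and Klf17 had no count in any library. Of the related Sp genes, 4 of 9 were tested. Sp1, which shares GC boxes with the KLFs, was at 186 ± 3.65 CPM in 5-FU+FMT, 189 ± 2.68 CPM in 5-FU+Saline and 185 ± 8.05 CPM in Control and was not called. Sp3 was higher (0.23, adjusted p = 4.02e-07 by edgeR) and Sp4 lower (-0.54, adjusted p = 3.07e-10) in 5-FU+Saline than in Control. Sp2 was lower (-0.28, adjusted p = 0.00129 by edgeR) and Sp4 higher (0.21, adjusted p = 0.0192) in 5-FU+FMT than in 5-FU+Saline. That Sp4 difference was no longer called with DESeq2 (0.19, adjusted p = 0.0503), without 5-FU+FMT replicate 3 (0.16, adjusted p = 0.131) or without 5-FU+Saline replicate 1 (0.18, adjusted p = 0.0804). Relative to Control, 5-FU+FMT had 3 of the 4 remaining Klf genes tested lower and none higher, beside 21.6% of all genes called lower and 25.0% higher. Klf1 was at -0.96 (SE 0.104, adjusted p = 1.03e-12 by edgeR). The call of Klf5 among these 3 (-0.91, adjusted p = 0.0103) was lost without 5-FU+FMT replicate 1 (adjusted p = 0.0583) and without Control replicate 1 (adjusted p = 0.0741).

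Genes known to act around the family were read as lists, beside the shares of all genes called and the all-gene medians. These were 32.8% higher, 32.7% lower and -0.02 in 5-FU+Saline against Control, and 17.7% higher, 19.2% lower and 0.01 in 5-FU+FMT against 5-FU+Saline. Of 12 genes that control Klf2 and Klf4 transcription, 3 were higher and 5 lower in 5-FU+Saline than in Control, with a median log2 fold change of -0.0032. Mapk7, the kinase gene upstream of Klf2, was higher (0.55, SE 0.0906, adjusted p = 1.52e-07 by edgeR) while Mef2d, of the MEF2 factors, was lower (-0.38, SE 0.0313, adjusted p = 1.88e-18). Foxo1, an activator of Klf2 in lymphocytes, was higher (1.01, SE 0.0788, adjusted p = 2.57e-19) and Foxo3 lower (-0.46, SE 0.0351, adjusted p = 1.39e-19). With FMT, relative to 5-FU+Saline, 4 of these genes were higher and 1, Foxo1, was lower (-0.47, SE 0.0745, adjusted p = 2.23e-07), and the call of Map3k2 among the 4 was lost without 5-FU+FMT replicate 2 (0.14, adjusted p = 0.0796). Of 12 cofactor genes, 6 were higher and 3 lower in 5-FU+Saline than in Control (median 0.17), with the corepressor enzyme genes Hdac1 (0.45) and Hdac2 (0.42) higher and the coactivator genes Crebbp (-0.61) and Ep300 (-0.42) lower. Relative to 5-FU+Saline, 3 were higher in 5-FU+FMT, among them Crebbp (0.29) and Ep300 (0.18), and 4 lower, among them Hdac1 (-0.23) and Hdac2 (-0.15), with a median of -0.09. Of 6 ubiquitin ligase genes whose products act on KLF proteins, none was higher and 3 were lower in 5-FU+Saline than in Control (median -0.07), led by Fbxo32 (-1.25, SE 0.117, adjusted p = 9.2e-16). The call of Smurf1, another of the 3 (-0.17, adjusted p = 0.0169), was lost with no filter (adjusted p = 0.132) and without 5-FU+Saline replicate 1 (adjusted p = 0.0941), 5-FU+Saline replicate 3 (adjusted p = 0.0797) or Control replicate 3 (adjusted p = 0.0933). Fbxo32 was also the one called in 5-FU+FMT against 5-FU+Saline, where it was higher (0.80, SE 0.121, adjusted p = 6.5e-08).

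Genes that KLF proteins are known to control did not move as one. Of 6 KLF2 target genes, known from T cells and endothelium, 5 were tested, all except Nos3. In 5-FU+Saline against Control 3 were higher, among them Plxnd1 (0.64), and 2 were lower, S1pr1 (-0.64) and Itgb7 (-0.42), with a median of 0.39. In 5-FU+FMT against 5-FU+Saline S1pr1, the egress receptor gene that KLF2 activates in T cells, was the one called higher (0.29, SE 0.0784, adjusted p = 0.00171 by edgeR), and Plxnd1 (-0.35) and Thbd (-0.44) were lower, with a median of 0.02. Of 3 genes that KLF3 represses, C1qtnf12 was lower in 5-FU+Saline than in Control (-1.77, SE 0.0666, adjusted p = 1.63e-37) and higher in 5-FU+FMT than in 5-FU+Saline (1.05, SE 0.0698, adjusted p = 5.15e-22), the same direction as Klf3 itself, and Klf8 and Lgals3 were not called (list medians 0.02 and -0.05). Of 9 TGF-beta pathway genes around Klf10 and Klf11, 8 were tested. The ligand gene Tgfb1 was higher in 5-FU+Saline than in Control (1.21, SE 0.0343, adjusted p = 1.8e-45) while the feedback inhibitor genes Smad7 (-2.18, SE 0.0524, adjusted p = 3.63e-50) and Skil (-1.69, SE 0.0416, adjusted p = 1.74e-49) were lower, in a list with 2 higher, 4 lower and a median of -0.10. In 5-FU+FMT against 5-FU+Saline 3 were higher and 1 lower (median -0.0039), with Smad7 at 1.15, Skil at 0.71 and Tgfb1 at -0.47.

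Of 8 glucocorticoid-induced genes, a class to which Klf9 also belongs, 2 were higher and 6 lower in 5-FU+Saline than in Control, with a median of -1.08. Fkbp5 (0.73) and Sgk1 (0.99) were the higher ones, and Dusp1 (-2.58) and the clock gene Per1 (-1.58) were among the lower. Relative to 5-FU+Saline, 6 were higher and 2 lower in 5-FU+FMT with a median of 0.53, and Fkbp5 (-0.23) and Sgk1 (-0.45) were the lower ones. The list of 14 immediate early genes, which holds Fos, Fosb, Jun and Egr1 of the pattern neighbours above, was lower throughout in 5-FU+Saline than in Control (14 of 14, median -2.39). It was higher throughout in 5-FU+FMT than in 5-FU+Saline (14 of 14, median 1.27) and lower throughout in 5-FU+FMT than in Control (14 of 14, median -1.12). The list shares Dusp1 with the glucocorticoid-induced genes and, like the other lists, was chosen with earlier results of these data known. Fosb had -3.41 (SE 0.0239, adjusted p = 5.97e-87 by edgeR) in 5-FU+Saline against Control, beside -3.41 for Klf6. In 5-FU+FMT against Control, with 25.0% of all genes called higher, 21.6% lower and an all-gene median of -0.01, the 8 glucocorticoid-induced genes had 2 higher, 6 lower and a median of -0.48. The 8 TGF-beta genes had 2 higher, 4 lower and a median of -0.11, and the 12 regulators of Klf2 and Klf4 had 2 higher, 5 lower and a median of 0.01. The 12 cofactor genes had 5 higher, 3 lower and a median of 0.05, and the 5 KLF2 targets had 2 higher, 2 lower and a median of 0.22. The 6 ligase genes had 1 higher, 2 lower and a median of -0.03. The higher one, Fbxw7 (0.17, adjusted p = 0.0431 by edgeR), was not called with upper-quartile scaling (adjusted p = 0.226), with DESeq2 (adjusted p = 0.0869), without 5-FU+FMT replicate 3 (adjusted p = 0.252) or without any 1 Control library (adjusted p = 0.0656, 0.0799 and 0.0925 without replicates 1, 2 and 3).

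**Figure D5:**
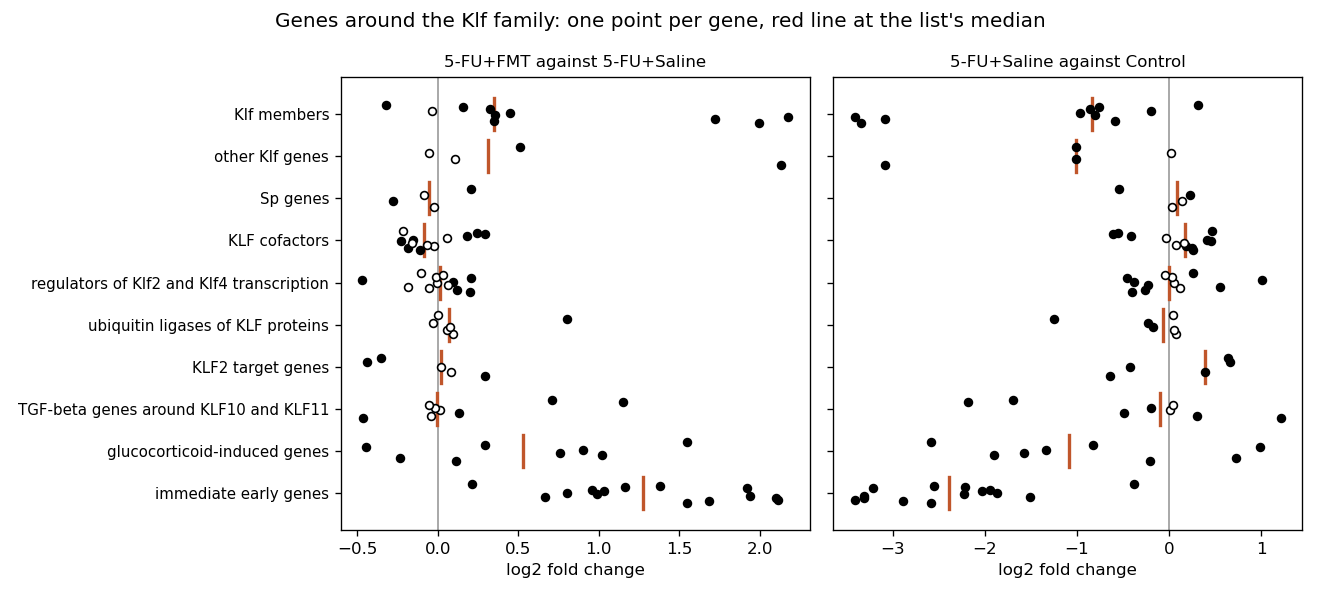
Log2 fold change (x axis) of the tested genes of the members and 9 related lists (rows) in 5-FU+FMT against 5-FU+Saline and 5-FU+Saline against Control (panels, each with its own scale). Points are genes, filled where called and open where not, and red lines are list medians, of which that of the immediate early genes is farthest from 0 in both panels (1.27 and -2.39).

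Markers of other cell types moved with the groups too. Counts of markers called are for 5-FU+Saline against Control, where 32.8% of all genes tested were called higher and 32.7% lower. B cell markers summed to 400 to 437 CPM in 5-FU+FMT, 852 to 870 CPM in 5-FU+Saline and 52.7 to 53.3 CPM in Control, with 8 of 8 called higher in 5-FU+Saline than in Control and Pax5, Ebf1, Vpreb1 and Igll1 under 1 CPM in Control. Stromal markers summed to 81.3 to 84.8 CPM in 5-FU+FMT, 259 to 265 CPM in 5-FU+Saline and 62.9 to 64.1 CPM in Control, with 7 of 8 higher and 1 lower and Lepr, Col1a1, Adipoq, Sparc and Igfbp5 under 1 CPM in Control. The lower one, Pdgfrb, made up most of the Control sum. Its means were 27.58 CPM in 5-FU+FMT, 12.97 CPM in 5-FU+Saline and 57.14 CPM in Control. The sums thus understate how far the other stromal markers differed from Control. Against Control, the median log2 fold change of the stromal list was 5.552 in 5-FU+Saline and 3.719 in 5-FU+FMT. Endothelial markers, of cells in which Klf2 and Klf4 are known to be high, summed to 185 to 193 CPM in 5-FU+FMT, 213 to 229 CPM in 5-FU+Saline and 161 to 168 CPM in Control, with 6 of 8 higher and 1 lower. The lower one, Pecam1, made up most of the Control sum. Its means were 87.66 CPM in 5-FU+FMT, 75.93 CPM in 5-FU+Saline and 99.61 CPM in Control. Neutrophil markers summed to 865 to 985 CPM in 5-FU+FMT, 153 to 169 CPM in 5-FU+Saline and 2271 to 2307 CPM in Control, with 3 of 8 higher and 4 lower. The lower were Elane (log2 fold change -6.3), Mpo (-5.4), Ctsg (-4.6) and Prtn3 (-2.3), which made up most of the sum in each group. The higher were Ltf (5.5), Ngp (3.4) and S100a9 (1.7), and Ltf and Ngp were under 1 CPM in Control. Monocyte and macrophage markers, in whose cells Klf4 acts, summed to 91.8 to 98.4 CPM in 5-FU+FMT, 56.3 to 58.4 CPM in 5-FU+Saline and 173 to 187 CPM in Control, with 2 of 8 higher and 5 lower. The higher were C1qa (log2 fold change 4.2) and Adgre1 (1.1), both under 1 CPM in Control. The lower were Ly6c2 (-3.3), F13a1 (-2.8), Csf1r (-1.8), Cd68 (-0.47) and Ms4a6c (-0.34). Erythroid markers, Klf1 among them, summed to 776 to 812 CPM in 5-FU+FMT, 458 to 471 CPM in 5-FU+Saline and 1247 to 1284 CPM in Control, with 9 of 10 lower and none higher and Slc4a1, Alas2, Ermap and Hbb-bs under 1 CPM in 5-FU+Saline. T and NK cell markers summed to 46.5 to 53.8 CPM in 5-FU+FMT, 42.5 to 45.1 CPM in 5-FU+Saline and 52.3 to 63.4 CPM in Control, with 6 of 7 tested higher and 1 lower. The lower one, Nkg7, made up most of the sum in each group, with means of 39.0, 30.5 and 53.8 CPM in that order. Cd3e, Cd3d, Cd3g, Trac, Cd8a and Ncr1 were under 1 CPM in Control. Megakaryocyte markers summed to 120 to 133 CPM in 5-FU+FMT, 117 to 122 CPM in 5-FU+Saline and 136 to 149 CPM in Control, and Gp1bb, the one marker at 0 in all libraries, was among them. The part of these cells, and of the sex makeup, in the Klf differences was not tested.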

How the data were processed

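Gene-level read counts of 9 libraries were analysed. The submitters' processing notes name Trim Galore 0.6.5, HISAT2 2.2.1, SAMtools, featureCounts 2.0.1 and the build mm10. The deposited counts, per the file headers, are read pairs over exons of GENCODE M25, summed by gene from unique alignments, with no strand option. A gene symbol was found for 55141 of 56262 IDs.

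From the deposited counts, filterByExpr left 16595 genes, libraries were scaled by TMM, and 1 model with the 3 groups was fitted by the quasi-likelihood method of edgeR 4.0.16, with limma 3.58.1 in R 4.3.3. The threshold was an adjusted p of 0.05 (Benjamini-Hochberg, over all genes tested). Folds are fitted values, and the SE is the log2 fold change divided by the square root of F, an approximation. CPM per kb is CPM divided by exon length. The rule named all 10 members, all tested genes of the other Klf and Sp lists, of each other list up to 4 genes with the smallest p, taken from both directions where there were calls in both, and 2 pattern neighbours per member. Pattern neighbours were sought among tested protein-coding genes with a mean of at least 10 CPM in 1 group or more, with a prior count of 2. Some genes that this rule or the lists hold are not reported here. The members and lists were chosen with earlier results of these data known. The fit was tested on simulated data. Alternatives were other scalings (RLE, upper quartile), no filter, a stricter filter (1 CPM in 3 libraries), DESeq2 1.42.0, limma-voom, only the groups compared, a replicate block, a threshold of 0.01, and leaving out each library. Promoters were read from the RefSeq table of GRCm38.p6. Figures used matplotlib 3.10.9 in Python 3.11.15.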

Additional observations from a re-analysis of the deposited data

How the results depend on the processing

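The counts of members called and of all genes called stayed within 1.5 times their value under each alternative run. Leaving out each library in turn gave 8 to 9 members lower in 5-FU+Saline than in Control, 7 to 8 higher in 5-FU+FMT than in 5-FU+Saline and 8 to 9 lower in 5-FU+FMT than in Control. With a replicate block, 10847, 6193 and 7717 genes were called for 5-FU+Saline against Control, for 5-FU+FMT against 5-FU+Saline and for 5-FU+FMT against Control, beside 10872, 6123 and 7735 without it, and the members' counts were the same. Libraries of the same number did not deviate together (correlations of -0.0173 to 0.0194 over 9 pairs), so the numbers were not taken to pair libraries. Differences that changed sign were all of uncalled genes. With upper-quartile scaling, 5-FU+Saline against Control was -0.0527 for Klf8 and -0.0411 for Sp1, and 5-FU+FMT against Control was -0.0569 for Sp1. With no filter, 5-FU+FMT against Control was 0.0335 for Klf16 and 0.0108 for Klf8. Over the left-out libraries, 5-FU+Saline against Control was -0.0667 to 0.107 for Klf8, 5-FU+FMT against 5-FU+Saline was -0.163 to 0.0191 for Klf8 and -0.0128 to 0.225 for Klf5, and 5-FU+FMT against Control was -0.026 to 0.00583 for Klf16, -0.134 to 0.0518 for Klf8 and -0.0242 to 0.0321 for Sp1. The cause was not tested. Member calls that were lost are given with those members. With 3 libraries a group of unstated origin, calls of small differences such as those of Klf10, Klf3 and Klf13 could be lost with 1 library, although each member had at least 241 counts in every library.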
